A study of Mus musculus with 2 samples.

Results

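Foxp3 and 4 members of the Ikaros family, Ikzf1 (Ikaros), Ikzf2 (Helios), Ikzf3 (Aiolos) and Ikzf4 (Eos), were followed across T cell states in splenic regulatory T cells (Tregs). They were taken by symbol, as 5 of the 32285 features listed for both libraries, and read in barcodes that showed 300 genes or more and no more than 5% of UMIs from mitochondrial genes. A UMI, or unique molecular identifier, stands for a transcript molecule, and a barcode for a droplet that usually holds a single cell. The series holds 1 WT and 1 KO library of YFP+7AAD- cells sorted from spleens of 7-day-old C57BL/6J mice. KO mice were Zfp335fl/fl with Foxp3-Cre, and WT mice carried Foxp3-Cre with unfloxed Zfp335, so both groups share the Foxp3 allele in which YFP and Cre follow the Foxp3 stop codon. Levels of Foxp3 were therefore measured on the modified allele in both groups, and Cre was driven by Foxp3. The number of mice pooled per library is not stated. With 1 library per genotype no test between genotypes was possible, and every interval is a 95% interval that covers counting error only.

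Foxp3 is the forkhead transcription factor that specifies Tregs, and its loss causes fatal autoimmunity in mice and humans. Ikaros family proteins are zinc finger transcription factors that bind DNA through their N-terminal fingers, pair with each other through C-terminal fingers, and recruit chromatin remodelling and co-repressor complexes. Helios is abundant in thymus-derived Tregs and supports their stability, Eos is a co-repressor partner of Foxp3, and Ikaros and Aiolos are broad regulators of lymphocyte development.

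In GRCm38 (mm10) with the GENCODE annotation, Foxp3 (ENSMUSG00000039521) lies on the plus strand at chrX:7573644-7595245. Ikzf1 (ENSMUSG00000018654) is at chr11:11685003-11772926 on the plus strand. Ikzf2 (ENSMUSG00000025997) is at chr1:69531214-69687245, Ikzf3 (ENSMUSG00000018168) at chr11:98464902-98546031 and Ikzf4 (ENSMUSG00000002578) at chr10:128630843-128645991, all on the minus strand. To show how alike the family is at the level of reads, the 72 coding bases within an exon that matched best among the 4 Ikaros genes are printed 5′ to 3′ on the coding strand. They encode an N-terminal DNA-binding zinc finger, and capitals mark the 50 bases shared by all 4 genes.
Ikzf1: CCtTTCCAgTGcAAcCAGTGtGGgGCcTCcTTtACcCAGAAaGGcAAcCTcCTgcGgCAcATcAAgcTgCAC
Ikzf2: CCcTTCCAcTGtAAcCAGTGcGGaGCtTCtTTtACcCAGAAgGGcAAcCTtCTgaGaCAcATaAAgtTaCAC
Ikzf3: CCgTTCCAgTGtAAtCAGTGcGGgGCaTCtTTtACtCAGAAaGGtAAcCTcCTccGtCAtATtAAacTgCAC
Ikzf4: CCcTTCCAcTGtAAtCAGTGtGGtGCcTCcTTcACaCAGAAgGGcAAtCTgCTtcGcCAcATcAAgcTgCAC
The stretches lie at chr11:11754015-11754086, chr1:69570581-69570652, chr11:98488940-98489011 and chr10:128640229-128640300. Compared with Ikzf1, 58 bases were the same in Ikzf2, 59 in Ikzf3 and 60 in Ikzf4, and the differences were spread along the stretch. No word of 50 bases was shared by the annotated coding transcripts of any pair among these genes, Foxp3 and Ikzf5. The longest exact run was 32 bases, between Ikzf2 and Ikzf4. Exons of Foxp3 overlap Flicr on the same strand and Ccdc22 and Gm36995 on the opposite strand, and those of Ikzf2 overlap Gm29114 on the opposite strand. The strand setting of the counting is not given in the sources used here, so reads in these overlaps cannot be assigned with certainty. Flicr, a non-coding RNA of the Foxp3 locus, had 9.25 CPM (UMIs scaled to a common total of 1000000 per library and state) in WT and 6.44 in KO over T-lineage barcodes, and Ccdc22 had a KO to WT ratio of 1.57 (1.43 to 1.73).

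The libraries held 64567991 and 65480052 UMIs, and 8053 WT and 13767 KO barcodes were kept. WT barcodes were deeper, with a median of 5061 UMIs against 2713 in KO. Only 29 barcode sequences were kept in both libraries. Zfp335 itself had 8.18 CPM in WT and 0.781 CPM in KO over T-lineage barcodes, a KO to WT ratio of 0.0955 (0.0675 to 0.132), in the direction of the labels. In the other lineages it had 38 UMIs in WT and 17 in KO, or 6.73 and 3.30 CPM, a ratio of 0.490 (0.259 to 0.889). T-lineage clusters, taken by their T cell marker RNA, held 7521 WT and 13027 KO barcodes. The Treg markers Il2ra, Ctla4, Tnfrsf18 and Cd4 were detected there at 92.4 to 367 CPM, whereas Cd8a and Cd8b1, the chains of the CD8 co-receptor of cytotoxic T cells, were at 0.432 and 5.29 CPM in WT and at 0.648 and 9.72 CPM in KO. RNA of other cell types was present among T-lineage barcodes. All 8 erythroid markers were detected in both libraries and summed to 533 CPM in WT and 3220 CPM in KO. All 9 neutrophil markers were detected too, with sums of 331 and 833 CPM. The 9 B cell markers went the other way, with 312 CPM in WT and 123 CPM in KO, as did the 4 NK cell markers with 124 and 55.1 CPM. The part of this RNA in the results below was not tested.

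A total of 4 T cell states were named from clusters made without the 5 genes. Resting-like barcodes numbered 2420 in WT and 4741 in KO, activated-like barcodes 792 and 1258, and S phase-like barcodes 654 and 1075. Effector-like barcodes were nearly all from WT, with 2073 there and 77 in KO. Within them the 4 NK cell markers summed to 171 CPM in WT and 738 CPM in KO. The 8 T cell markers summed to 7818 and 6520 CPM, and the 4 Treg markers to 666 and 634 CPM. Whether the effector-like barcodes of both libraries hold the same kind of cell was not tested. The remaining T-lineage barcodes fell in clusters that stayed unnamed, of which the largest, with 4608 KO and 143 WT barcodes, was led by haemoglobin and neutrophil genes. The leading genes of 3 others also belong to other cell types. They were neutrophil genes such as Ltf and Camp in a cluster of 12 WT and 771 KO barcodes, the granule genes Mpo, Ctsg and Elane in one of 6 and 203, and the macrophage genes C1qa, C1qb and C1qc in one of 42 and 9. Over the 4 named states alone the ratios were 1.19 (1.12 to 1.27) for Foxp3, 1.03 for Ikzf1, 0.620 (0.609 to 0.632) for Ikzf2, 0.804 for Ikzf3 and 1.09 for Ikzf4. Levels are given as CPM and, where depth matters, as UMIs per barcode.

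Among the named states Foxp3 was highest by CPM in resting-like barcodes of both libraries and differed little between them. Resting-like barcodes had 64.8 CPM (60.1 to 69.8) in WT and 62.5 CPM (59.1 to 66.0) in KO, a ratio of 0.964 (0.878 to 1.06). These intervals overlap, and a difference was not detectable at this depth. In WT the order went on with effector-like barcodes at 39.5 CPM (36.6 to 42.5), activated-like at 31.0 (27.2 to 35.1) and S phase-like at 24.4 (21.5 to 27.5). The intervals of neighbouring states in this order did not overlap except between activated-like and S phase-like barcodes. In KO the order after resting-like barcodes was activated-like at 37.5 CPM (34.0 to 41.4), S phase-like at 33.8 (30.5 to 37.4) and effector-like at 23.4 (13.4 to 38.0), and these 3 overlapped. The effector-like value in KO rests on 16 UMIs. KO to WT ratios were 1.21 (1.03 to 1.43) in activated-like, 1.39 (1.18 to 1.63) in S phase-like and 0.593 (0.337 to 0.971) in effector-like barcodes. Over all T-lineage barcodes the level was 40.6 CPM in WT and 44.4 CPM in KO, a ratio of 1.09 (1.03 to 1.16). Over the named states the ratio was 1.19, and it became 0.918 with both libraries weighted to the WT mix of those states. That weighting gives the KO effector-like value, from 16 UMIs, the effector-like share of WT. The T-lineage ratio became 0.831 when barcodes were thinned to 1000 UMIs, which left out 1083 WT and 1086 KO barcodes below that depth. Per barcode, S phase-like cells had the most Foxp3 UMIs in both libraries, 0.396 in WT and 0.349 in KO, so that their low CPM goes with their large UMI totals. Resting-like cells had the fewest per barcode in WT, at 0.286. In KO they had 0.268, and only effector-like cells had fewer, at 0.208.

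Ikzf2 was lower in KO in every named T cell state. Its level over T-lineage barcodes was 657 CPM (650 to 664) in WT and 405 CPM (399 to 410) in KO, a ratio of 0.616 (0.606 to 0.627). Effector-like barcodes had the most in WT, at 773 CPM (760 to 786). Resting-like barcodes followed at 633 CPM (618 to 649) and activated-like at 626 (609 to 644), which overlap, and S phase-like barcodes had the least at 516 (502 to 530). The order in KO was another. Activated-like barcodes had 418 CPM (406 to 430), resting-like 408 (400 to 417) and S phase-like 403 (391 to 415), all overlapping, and effector-like barcodes had the least at 337 (295 to 383). The ratios were accordingly 0.436 (0.381 to 0.497) in effector-like, 0.644 (0.624 to 0.666) in resting-like, 0.667 (0.641 to 0.695) in activated-like and 0.780 (0.750 to 0.812) in S phase-like barcodes. In UMIs per barcode the T-lineage values were 4.24 in WT and 1.63 in KO, and in resting-like barcodes, where depths were close, 2.79 and 1.75. S phase-like cells had the most Ikzf2 UMIs per barcode of the named states, 8.39 in WT and 4.15 in KO. By the mean of single-barcode CPM they stayed last in WT, at 564 CPM against 611 CPM in resting-like barcodes, the next lowest. In the single draw thinned to 1000 UMIs, S phase-like barcodes of WT had 633 CPM, and resting-like barcodes were lowest by a small margin. These 2 alternatives disagree, so whether the last place of S phase-like barcodes depends on depth was not settled. Other lineages together, in which Ikzf2 UMIs can come from free RNA, had 85.7 CPM in WT and 85.1 CPM in KO. These lineages did not go one way. Ikzf2 was at 75.9 CPM in WT and 93.9 CPM in KO in erythroid-like barcodes (ratio 1.24, 1.02 to 1.5) and at 72.1 and 132 CPM in neutrophil-like barcodes (1.82, 1.30 to 2.57). It was at 247 and 161 CPM in B cell-like barcodes (0.650, 0.350 to 1.15), and at 89.3 and 55.6 CPM (0.623, 0.485 to 0.797) in an unnamed cluster led by the myeloid genes Mcpt8, Lyz2 and Ctsg, close to the T-lineage ratio. Erythroid-like barcodes of KO also held more Il2ra RNA, with 62.0 CPM against 13.7 CPM in WT, and the part of T cell RNA in these values was not tested.

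By summed UMIs, Ikzf4 was lower in KO in resting-like and effector-like barcodes but not in the other states, where the direction varied with processing. Resting-like barcodes had 54.4 CPM (50.1 to 59.0) in WT and 41.0 CPM (38.3 to 43.9) in KO, a ratio of 0.754 (0.677 to 0.839). In WT the resting-like level stood above those of activated-like (33.5 CPM, 29.6 to 37.8), effector-like (32.0, 29.4 to 34.7) and S phase-like barcodes (31.3, 28.0 to 34.9), which overlapped each other. Thinned to 1000 UMIs, the WT levels were 55.0 CPM in resting-like, 44.3 in S phase-like, 41.7 in activated-like and 34.2 in effector-like barcodes. Per barcode, resting-like cells had the fewest Ikzf4 UMIs of the 4 WT states, at 0.240, and S phase-like cells the most, at 0.509. In KO the levels of S phase-like (43.2 CPM, 39.4 to 47.3), resting-like and activated-like barcodes (38.9, 35.3 to 42.8) all overlapped. Effector-like barcodes of KO held 4 UMIs of Ikzf4, or 5.86 CPM (1.60 to 15.0), against 563 UMIs in WT, and the ratio was 0.183 (0.0497 to 0.472). The ratio was 1.16 (0.995 to 1.36) in activated-like and 1.38 (1.20 to 1.59) in S phase-like barcodes. As the mean of single-barcode CPM these were 1.22 and 1.3. Thinned to 1000 UMIs they were 0.878 and 0.986, and at resolution 1.0 they were 1.14 and 0.745. Over T-lineage barcodes the Ikzf4 ratio was 1.04 (0.971 to 1.10), from 37.0 and 38.3 CPM. Over the named states it was 1.09, and it became 0.751 with both libraries weighted to their WT mix. The KO effector-like value in that weighting rests on 4 UMIs.

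Ikzf1 and Ikzf3 differed less than Ikzf2 over T-lineage barcodes. Among the named states Ikzf1 was highest in resting-like barcodes, at 175 CPM (167 to 183) in WT and 144 CPM (139 to 149) in KO, a ratio of 0.822 (0.776 to 0.872). Its levels in the other 3 WT states lay between 108 and 115 CPM and overlapped, and those in KO lay between 102 and 120 CPM. Per barcode, resting-like cells had the fewest Ikzf1 UMIs of the named states, 0.771 in WT and 0.617 in KO. The Ikzf1 ratios were 0.952 (0.739 to 1.21) in effector-like, 0.946 (0.867 to 1.03) in activated-like and 1.09 (1.01 to 1.18) in S phase-like barcodes. Over all T-lineage barcodes Ikzf1 had 126 CPM in WT and 128 CPM in KO, a ratio of 1.02 (0.986 to 1.06). Ikaros is active in most blood lineages, and Ikzf1 was found at 99.4 and 109 CPM in neutrophil-like barcodes and at 69.9 and 64.1 CPM in erythroid-like barcodes of WT and KO. Ikzf3 was lower in KO in each state, with ratios of 0.645 (0.474 to 0.858) in effector-like, 0.825 (0.737 to 0.925) in activated-like, 0.854 (0.793 to 0.920) in resting-like and 0.870 (0.783 to 0.966) in S phase-like barcodes. The last ratio was 0.868 as the mean of single-barcode CPM. It became 0.544 in the single draw thinned to 1000 UMIs, where 60 WT and 56 KO S phase-like barcodes had an Ikzf3 UMI. Over T-lineage barcodes Ikzf3 had 94.2 CPM in WT and 74.0 CPM in KO, a ratio of 0.786 (0.753 to 0.821). In WT the resting-like (107 CPM, 100 to 113) and effector-like levels (109 CPM, 104 to 114) overlapped and stood above activated-like (73.2) and S phase-like barcodes (71.1). In KO resting-like barcodes had the most, at 90.9 CPM (86.8 to 95.2), and overlapped only with the 48 UMIs of effector-like barcodes at 70.3 CPM (51.8 to 93.2). Aiolos is abundant in B cells, and the few B cell-like barcodes had more Ikzf3 than any named T cell state, at 222 CPM (160 to 298) in 44 WT barcodes and 180 CPM (108 to 281) in 31 KO barcodes.

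**Figure D1:**
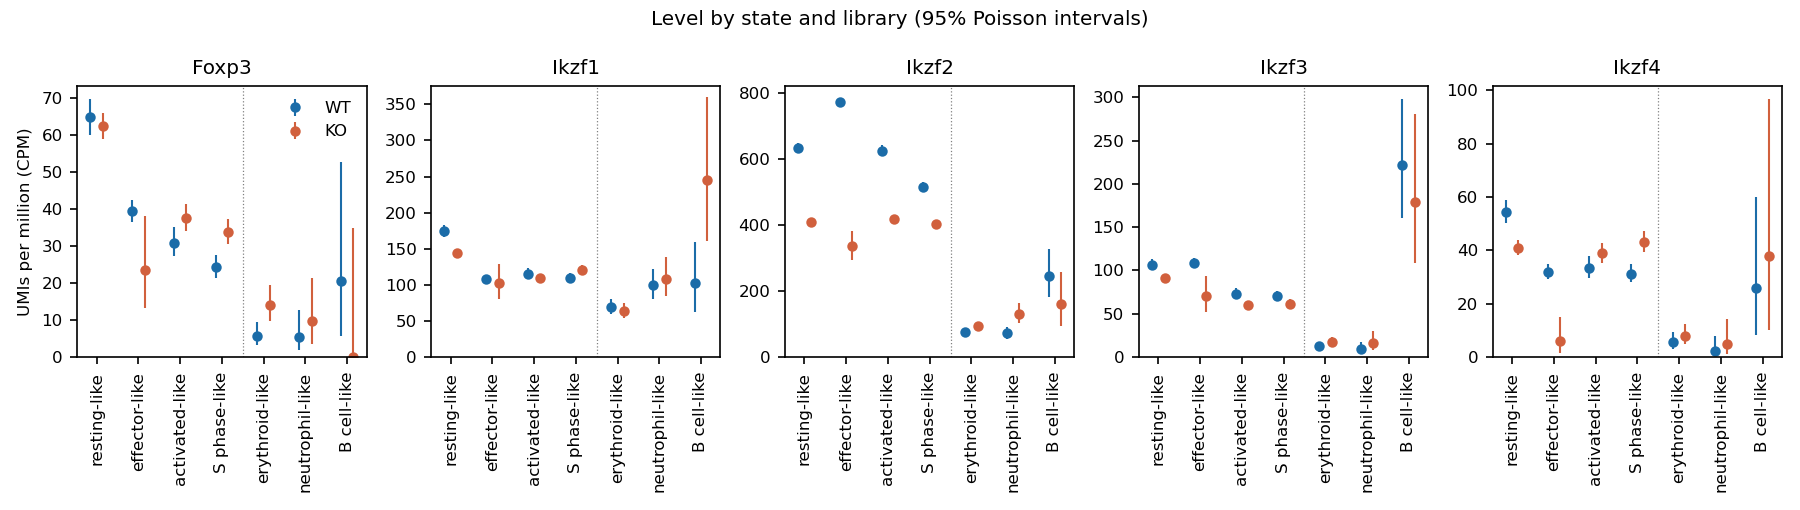
Level of each gene in CPM (vertical axis, from 0) by state (horizontal axis) in WT (blue) and KO (orange); points are summed UMIs of a library and bars are 95% Poisson intervals, with other lineages to the right of the dotted line. Ikzf2 of WT lies above KO in all 4 T cell states, from 773 against 337 CPM in effector-like to 516 against 403 CPM in S phase-like barcodes.

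The ratios were set beside those of all genes with at least 50 UMIs over both libraries. Over T-lineage barcodes, 12.3% of 12223 genes were lower in KO by 1.5-fold or more and 6.18% were higher, and Ikzf2 alone of the 5 genes was past this fold. Its ratio was undercut by 9.81% of those genes. In resting-like barcodes 11.7% of 10400 genes were lower and 2.45% higher, again with Ikzf2 as the sole of the 5 past the fold and 9.70% of genes below it. In effector-like barcodes Foxp3, Ikzf2, Ikzf3 and Ikzf4 were lower by more than 1.5-fold, against 14.4% of 9749 genes lower and 12.6% higher. With 77 KO barcodes behind them, the intervals of Foxp3 and Ikzf3 reached 0.971 and 0.858. Foxp3 was no longer past the fold with thinning to 1000 UMIs (0.833), nor Ikzf3 as the mean of single-barcode CPM (0.822) or at resolution 1.0 (0.777), and Ikzf4 moved from 0.183 to 0.379 with thinning. In that thinned draw only 3 KO effector-like barcodes had a Foxp3 UMI and 1 had an Ikzf4 UMI, so the thinned values are imprecise. None of the 5 genes was past 1.5-fold in activated-like barcodes, where 11.5% of 9635 genes were lower and 4.39% higher, or in S phase-like barcodes, where 8.44% of 9778 genes were lower and 8.67% higher. Across the 5 genes the log2 ratios had a median of 0.03 over T-lineage barcodes against -0.07 for all genes, -0.28 against -0.11 in resting-like, -0.71 against 0.01 in effector-like, -0.08 against -0.09 in activated-like and 0.13 against 0.03 in S phase-like barcodes.

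**Figure D2:**
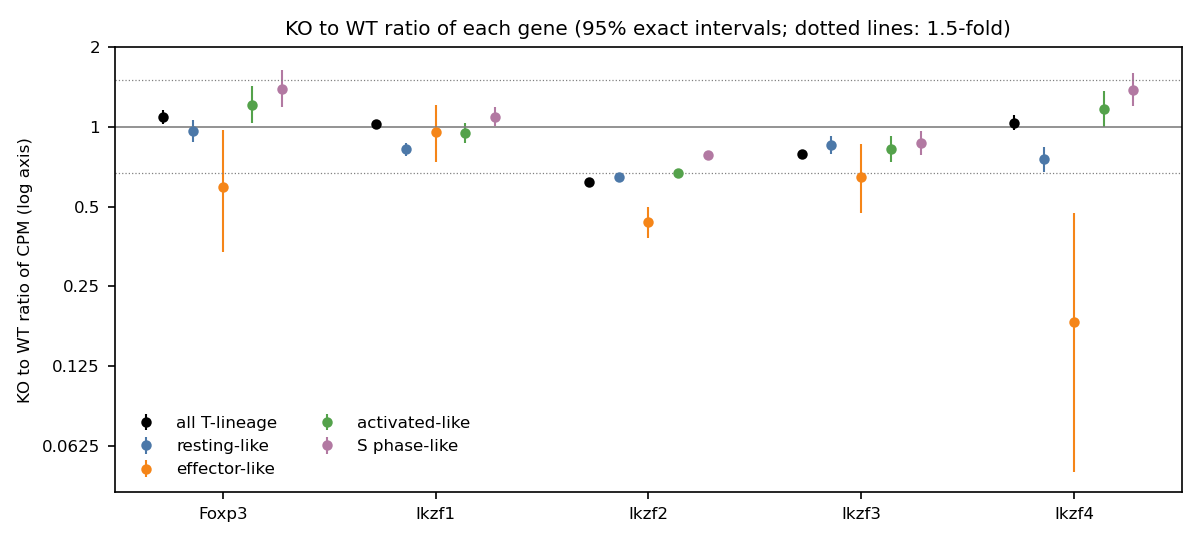
KO to WT ratio of CPM (vertical axis, log scale) for each gene (horizontal axis) over all T-lineage barcodes and in each state (colours); bars are exact 95% intervals from the counts and dotted lines mark 1.5-fold. All 5 points of Ikzf2 lie between 0.436 and 0.780, whereas those of Foxp3 and Ikzf4 lie on both sides of 1.

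Because WT and KO barcodes of a state may not be the same kind of cell, each state was also read at the finer clustering of resolution 1.0, a breakdown made after the values were seen. Finer clusters with at least 200 barcodes of a state are given. The S phase-like cluster then had 3, with 6 WT and 24 KO barcodes outside them. WT gave 422 of its barcodes to a cluster led by the effector genes Gzmb, Gzma, Cxcr3 and Klrg1, to which KO gave 16. KO gave 738 to a cluster led by histone genes, to which WT gave 166. A mitotic cluster led by Nek2 and Cep55 took 60 WT and 297 KO barcodes. Foxp3 in WT was 19.1 CPM in the cycling effector cluster, 41.6 CPM in the histone cluster and 43.6 CPM in the mitotic cluster. The KO values were 35.0 CPM in the histone cluster and 38.6 CPM in the mitotic cluster, with ratios of 0.841 (0.644 to 1.11) and 0.884 (0.571 to 1.41). In the 16 KO barcodes of the cycling effector cluster no Foxp3 UMI was found, and the interval of that ratio reached 0.776. The excess of Foxp3 in KO over the S phase-like cluster as a whole was thus seen in none of its 3 finer clusters. Ikzf4 followed the same course, with 24.1 CPM in the WT cycling effector cluster, and ratios of 0.746 (0.597 to 0.940) in the histone and 0.907 (0.592 to 1.43) in the mitotic cluster. Ikzf2 was lower in KO in all 3, at 642 against 413 CPM (ratio 0.643, 0.600 to 0.690) in the histone, 559 against 406 CPM (0.727, 0.642 to 0.824) in the mitotic and 488 against 171 CPM (0.350, 0.253 to 0.473) in the cycling effector cluster. In the same order Ikzf3 had ratios of 0.891 (0.722 to 1.11), 0.907 (0.661 to 1.26) and 1.27 (0.801 to 1.93), each interval including 1. Ikzf1 had 0.859 (0.745 to 0.994), 0.906 (0.706 to 1.17) and 0.905 (0.570 to 1.37), so that its S phase-like excess was seen in none of the 3.

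The resting-like cluster also had 3, with 82 WT and 21 KO barcodes outside them. The largest, led by Dapl1, had 1233 WT and 3063 KO barcodes. A cluster led by St8sia6 had 990 and 486, and a cluster led by the interferon-induced genes Ifit3 and Ifit1 had 115 and 1171. Ikzf2 was lower in KO in each, with 578 against 420 CPM (0.726, 0.695 to 0.759), 690 against 383 CPM (0.556, 0.511 to 0.604) and 605 against 382 CPM (0.631, 0.562 to 0.711). The KO levels were close to each other while the WT levels were spread, and the St8sia6 cluster was highest in WT and not in KO. Ikzf4 had ratios of 0.916 (0.788 to 1.07), 0.614 (0.465 to 0.801) and 0.595 (0.416 to 0.873), so that its difference in resting-like barcodes was small where most KO barcodes lay. Ikzf3 had ratios of 0.997 (0.892 to 1.12), 0.990 (0.851 to 1.15) and 1.12 (0.835 to 1.53), and its lower level in KO resting-like barcodes was seen in none of the 3. Ikzf1 had 0.852 (0.786 to 0.925), 0.937 (0.825 to 1.06) and 1.13 (0.886 to 1.46). Foxp3 had 1.06 (0.927 to 1.21), 1.12 (0.919 to 1.37) and 0.803 (0.580 to 1.14), each interval including 1.

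**Figure D3:**
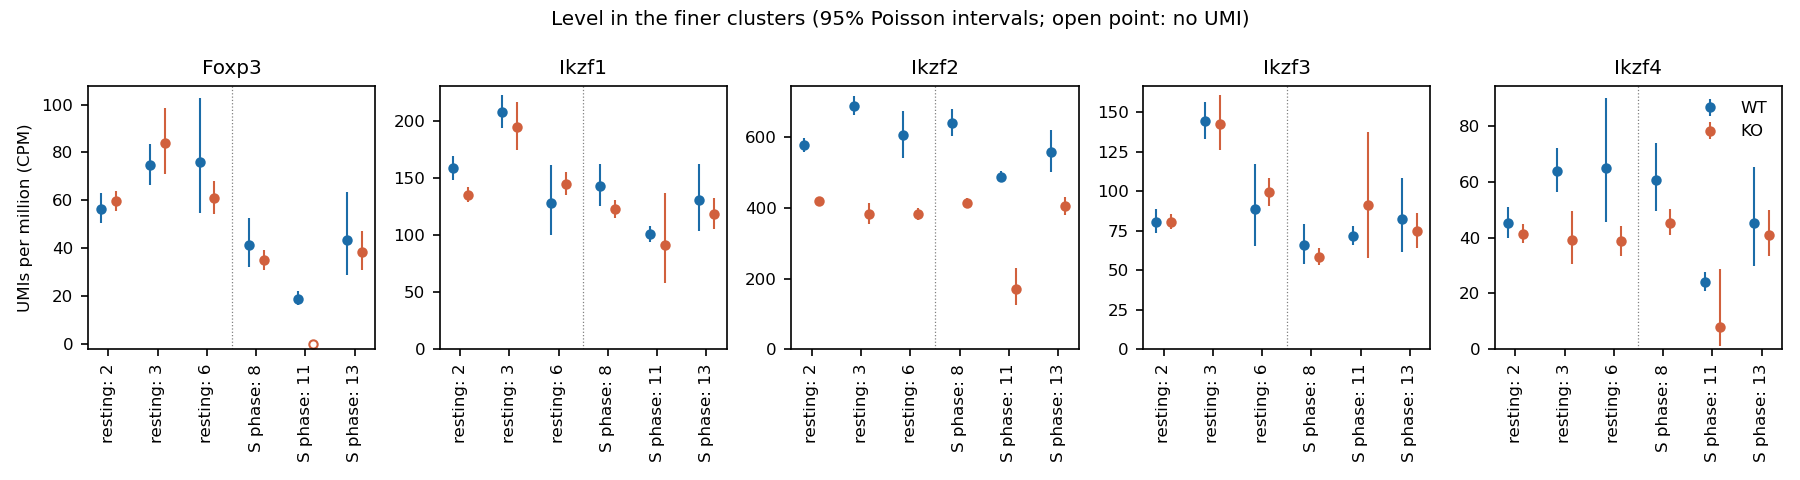
Level of each gene in CPM (vertical axis) in the finer clusters of the resting-like (2, 3 and 6, led by Dapl1, St8sia6 and Ifit3) and S phase-like barcodes (8, 11 and 13, the histone, cycling effector and mitotic clusters) in WT (blue) and KO (orange), with 95% Poisson intervals and an open point for no UMI. Ikzf2 of KO lies below WT in all 6 clusters, whereas Foxp3 and Ikzf4 of WT are lowest in cluster 11, at 19.1 and 24.1 CPM.

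Shares of barcodes with a UMI were compared after thinning each barcode to 1000 UMIs, which left out 3 WT and 19 KO resting-like barcodes and 53 WT and 40 KO erythroid-like barcodes. An Ikzf2 UMI was found in 41.0% (39.0 to 43.0) of WT and 31.0% (29.7 to 32.4) of KO resting-like barcodes. Without thinning the shares were 76.1% and 65.0%. In effector-like barcodes the thinned shares were 53.2% (51.0 to 55.3) and 23.4% (14.5 to 34.4), in activated-like 47.5% and 34.7%, and in S phase-like 44.8% and 32.8%. Erythroid-like barcodes, with median depths of 5502 UMIs in WT and 2597 in KO before thinning, gave 9.28% (5.91 to 13.7) and 13.0% (10.1 to 16.4) for Ikzf2, so that all 4 T cell states of WT and KO lay above this background in value. Fewer KO barcodes had any Ikzf2 UMI, and those with a UMI held fewer, 1.32 on average in resting-like barcodes against 1.53 in WT. The variance of thinned Ikzf2 UMIs over their mean was 1.41 in WT and 1.22 in KO resting-like barcodes, and 1.17 in WT effector-like barcodes, where 1 is the value of pure counting noise.

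Foxp3 was sparse at this depth. It was found in 6.25% (5.32 to 7.29) of WT and 5.76% (5.11 to 6.46) of KO resting-like barcodes, against 1.27% (0.262 to 3.65) and 2.94% (1.61 to 4.88) of erythroid-like barcodes. The thinned shares in the other states were 3.44% (2.43 to 4.71) in S phase-like, 3.18% (2.28 to 4.30) in activated-like and 3 of 77 in effector-like barcodes of KO. In WT they were 2.45% (1.40 to 3.94), 2.90% (1.85 to 4.33) and 4.44% (3.59 to 5.42). The intervals of all 6 overlapped those of erythroid-like barcodes of the same library at 1000 UMIs. These shares were not compared with background directly, and overlap does not show that they equal it. For the levels from all UMIs, which carry more counts, most intervals did not overlap. Foxp3 in erythroid-like barcodes was at 5.70 CPM (3.19 to 9.39) in WT and 14.1 CPM (9.82 to 19.6) in KO, below the intervals of all 4 T cell states of WT and of all but effector-like barcodes in KO. Ikzf4 was found in 5.13% (4.28 to 6.09) of WT and 4.21% (3.66 to 4.83) of KO resting-like barcodes, above 0.422% (0.0107 to 2.33) and 1.05% (0.341 to 2.43) in erythroid-like barcodes. The Ikzf1 shares in resting-like barcodes were 17.2% and 14.8% and those of Ikzf3 10.1% and 8.73%.

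**Figure D4:**
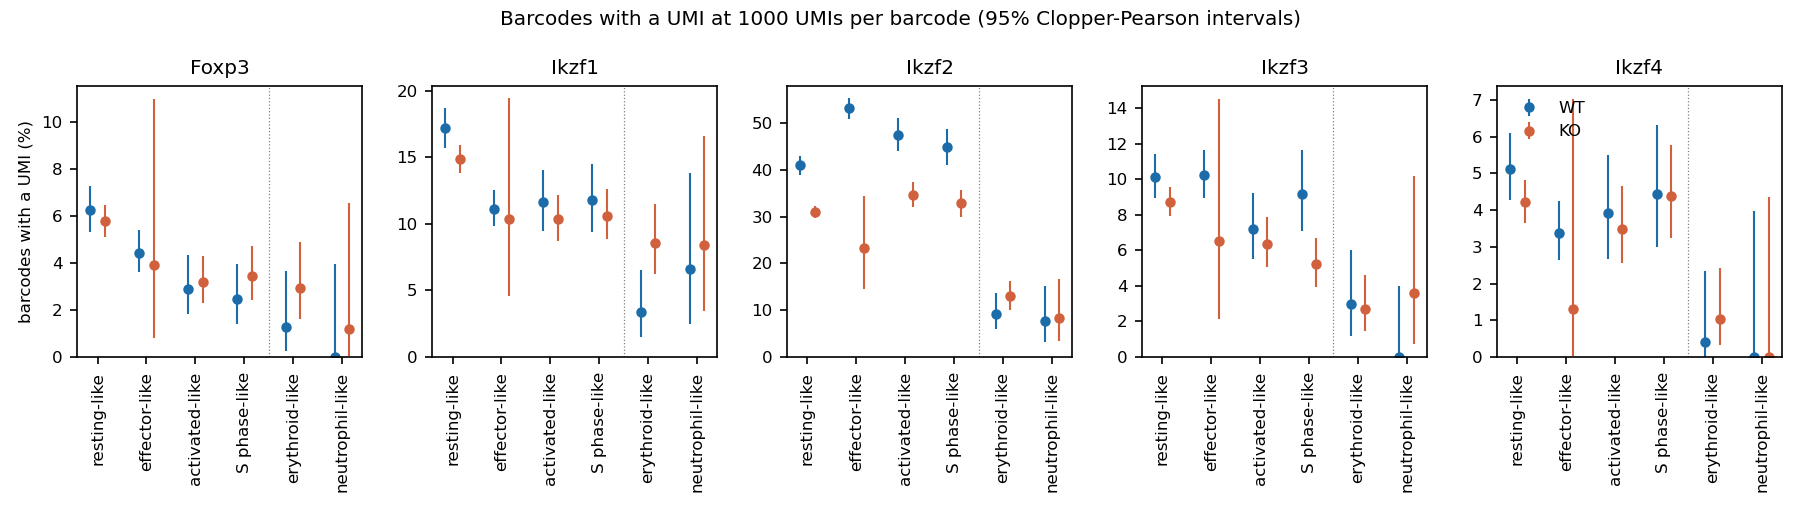
Percent of barcodes with a UMI of each gene after thinning to 1000 UMIs per barcode (vertical axis, from 0) by state (horizontal axis) in WT (blue) and KO (orange), with 95% Clopper-Pearson intervals and background lineages right of the dotted line. Ikzf2 of WT and KO separate in every T cell state, and the Foxp3 interval lies above that of erythroid-like barcodes in resting-like barcodes of both libraries and overlaps it in the other states at this depth.

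Co-detection of Foxp3 with the Ikaros genes was read at the same depth as a description within each library. Of 151 WT resting-like barcodes with a Foxp3 UMI, 49.0% (40.8 to 57.3) also had Ikzf2, against 40.4% (38.4 to 42.5) of the 2266 without. In KO the shares were 28.3% (23.0 to 34.1) of 272 and 31.2% (29.8 to 32.6) of 4450. For Ikzf4 the WT shares were 8.61% (4.66 to 14.3) and 4.90% (4.05 to 5.87), and the KO shares 2.94% (1.28 to 5.71) and 4.29% (3.72 to 4.93). The intervals with and without Foxp3 overlapped in all 4 of these pairs. The shares were not compared directly, and overlap of their intervals does not show that they are equal. For Ikzf3 the intervals overlapped as well, with 13.9% (8.82 to 20.5) and 9.89% (8.69 to 11.2) in WT and 10.7% (7.26 to 15.0) and 8.61% (7.80 to 9.47) in KO. Over T-lineage barcodes, which mix states, the Ikzf3 shares were 14.6% (10.9 to 19.1) with and 9.65% (8.92 to 10.4) without Foxp3 in WT, and 9.84% (7.34 to 12.8) and 7.31% (6.84 to 7.80) in KO.

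Partners and targets of these factors were given from lists, chosen with earlier results of these data known. None of 17 partners of Ikaros proteins, subunits of the nucleosome remodelling and deacetylase complex and other co-repressors, was past 1.5-fold over T-lineage barcodes, against 12.3% of all genes lower and 6.18% higher, or over resting-like barcodes, against 11.7% and 2.45%. The list's median log2 ratio over T-lineage barcodes was 0.02 against -0.07 for all genes. The largest ratios among them were 1.29 for Mbd3, with 115 and 148 CPM, and 0.761 for Mta3 and 0.780 for Gatad2a, all subunit genes of that complex. Ikzf5 (Pegasus), a further member of the Ikaros family, had a ratio of 1.06 (0.965 to 1.17). Of 29 regulators and partners of Foxp3, 2 were lower and 1 higher by 1.5-fold over T-lineage barcodes, where 12.3% of all genes were lower and 6.18% higher, and none in resting-like barcodes, where 11.7% and 2.45% were. Nfatc1, a calcium-regulated factor downstream of the T cell receptor, had 72.5 CPM in WT and 38.1 CPM in KO (0.526, 0.498 to 0.556), and Runx3, a Runt-domain factor, had 43.6 and 28.2 CPM (0.648, 0.606 to 0.693). Satb1, a chromatin organiser held low by Foxp3, had 130 and 213 CPM (1.64, 1.59 to 1.70). Within resting-like barcodes the ratio of Satb1 was 0.949, that of Runx3 1.08 and that of Nfatc1 0.699.

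Of 19 genes known to be raised in Foxp3-expressing Tregs, 8 were lower and 2 higher in KO by 1.5-fold over T-lineage barcodes, against 12.3% and 6.18% of all genes. The lower genes included Itgae, an integrin chain, at 4.24 and 0.914 CPM (0.216, 0.154 to 0.296), Nrp1, a surface marker of thymus-derived Tregs, at 76.5 and 16.7 CPM (0.218, 0.203 to 0.235), and Icos, a costimulatory receptor, at 101 and 39.7 CPM (0.391, 0.371 to 0.412). In resting-like barcodes 17 of the 19 had 50 UMIs or more, of which 4 were lower and none higher, against 11.7% and 2.45% of all genes. Nrp1 had a ratio of 0.360 (0.313 to 0.412) there and Icos 0.738 (0.655 to 0.830). Other genes of the list were above 1 there but short of 1.5-fold, such as Capg at 1.47 (1.39 to 1.55) and Il2rb at 1.34 (1.27 to 1.42). The list's median log2 ratio was -0.38 over T-lineage and 0.11 over resting-like barcodes, against -0.07 and -0.11 for all genes. The 11 effector Treg markers, which share Icos, Nrp1 and Itgae with this list, summed to 2316 CPM in WT and 239 CPM in KO over T-lineage barcodes, and to 509 and 138 CPM within resting-like barcodes. All 11 were detected in both libraries, and the part of the mix of states in the list's values was not tested beyond these numbers. Of 9 genes known to be lowered in Foxp3-expressing Tregs, 8 had enough UMIs over T-lineage barcodes, and 2 were lower and 3 higher in KO by 1.5-fold, against 12.3% and 6.18% of all genes. Igfbp4, a growth factor binding protein gene, had 46.1 CPM in WT and 238 CPM in KO (5.16, 4.93 to 5.40), and 128 and 270 CPM in resting-like barcodes. Dapl1 had 29.3 and 49.3 CPM (1.69, 1.58 to 1.80), and Ifng, the interferon gamma gene, had 8.98 and 3.49 CPM (0.388, 0.325 to 0.462). Dapl1 and Igfbp4 are also in the marker list of resting T cells, and in resting-like barcodes the ratio of Dapl1 was 0.848.

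**Figure D5:**
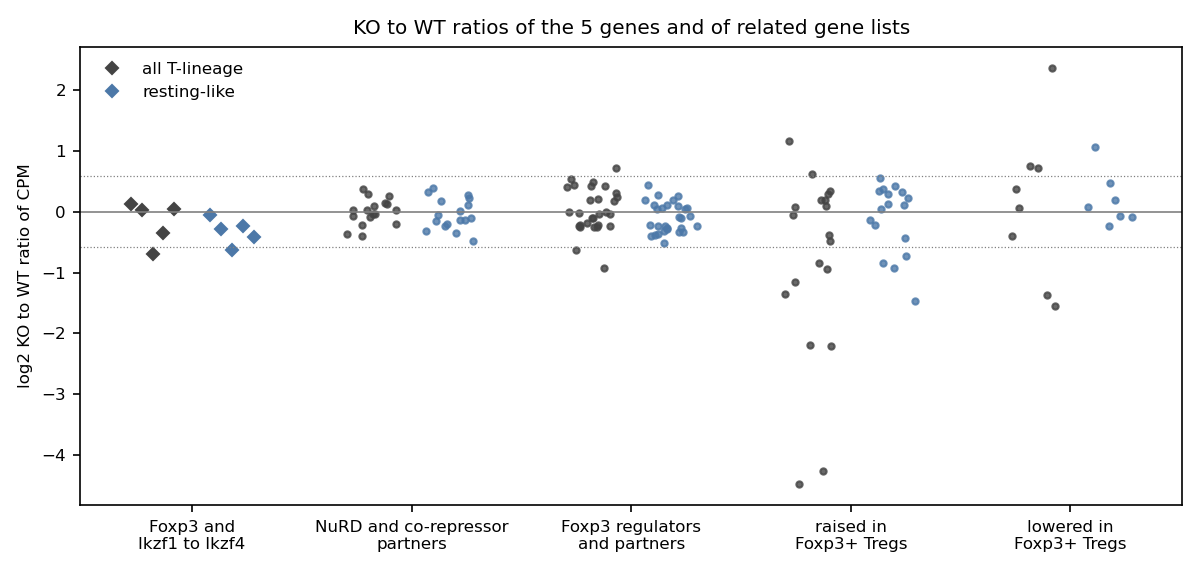
log2 KO to WT ratio of CPM (vertical axis) of the 5 genes (diamonds) and of each gene with at least 50 UMIs in the lists of partners, regulators and targets (points) over all T-lineage (grey) and resting-like barcodes (blue), with dotted lines at 1.5-fold. The partner list stays inside the dotted lines, whereas the genes raised in Foxp3-expressing Tregs reach down to Tigit, at a T-lineage ratio of 0.0449.

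Levels were also compared over 24 units of a cluster and a library with at least 50 barcodes, T-lineage and other. Among 8709 genes, those whose log2 CPM went most closely with Foxp3 were Bcl11b (Pearson r = 0.96), Cd5 (0.96) and Lef1 (0.96). Ikzf2 was followed by Skap1 (0.97), Gimap5 (0.96) and Ablim1 (0.96), Ikzf3 by Tnik (0.98), Prkcq (0.96) and Ablim1 (0.96), and Ikzf4 by Lrrc32 (0.94), Cd6 (0.92) and Cd5 (0.91). Ikzf1 went with Crebbp (0.94), Rab5a (0.94) and Lrif1 (0.92) instead, and its r with the other 4 was between 0.52 and 0.67. The units share 2 libraries, and the step between T-lineage and other units enters every r.

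Among T-lineage clusters that stayed unnamed, the large cluster led by haemoglobin and neutrophil genes had 399 CPM of Ikzf2 in KO and 566 CPM in the 143 WT barcodes, a ratio of 0.705 (0.600 to 0.834), and Foxp3 at 24.6 and 32.6 CPM (0.752, 0.388 to 1.67). A shallow cluster with 464 WT and 199 KO barcodes, led by the non-coding RNAs Gm26917 and Lncpint and by Hexim1, had the most Foxp3 of any unit with 78.1 CPM in WT and 92.5 CPM in KO. Ikzf2 there was at 852 CPM in WT and 533 CPM in KO, a ratio of 0.625 (0.523 to 0.743). The shallowest cluster, with 915 WT and 86 KO barcodes, had Ikzf2 at 451 and 393 CPM (0.870, 0.591 to 1.24), and its KO value rests on 34 UMIs.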

How the data were processed

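Splenic YFP+ Tregs of 1 WT and 1 KO library were profiled by droplet RNA sequencing. The authors mapped reads to mm10 with Cell Ranger 5.0.1 (submitters' processing notes) and deposited raw UMI counts, which were used unchanged. Kept barcodes had 300 genes or more and no more than 5% of UMIs from mitochondrial genes, and doublets were left in. Clusters (Leiden, igraph 0.11.9, resolution 0.5, 20 neighbours, 30 components of 2000 variable genes, scikit-learn 1.9.0) were made without the 5 genes, the partner and target lists and haemoglobin, granule, mitochondrial and sex-linked genes. States were named from marker lists by a rule set after the data had been seen: the class with the most markers among the 10 leading genes and at least 3 markers raised 1.5-fold, in T-lineage clusters, whose T cell marker CPM was at least 50% of the highest cluster's. The genes and lists were chosen with earlier results of these data known. All 5 genes were named throughout, together with the 3 genes of each list with the largest T-lineage ratio among those with at least 200 UMIs (Ikzf5 as its list), and the 3 genes closest in pattern. Genes named outside this rule (Tigit, Gpr83, Il2ra, Capg and Il2rb of the target list, the overlapping genes, cluster leaders) were chosen after their values were seen. UMIs were summed per library and state as CPM with exact Poisson intervals, ratios had exact conditional binomial intervals and shares Clopper-Pearson intervals (scipy 1.17.1). Medians of log2 ratios had 0.5 added to each sum. Scripts were tested on simulated data. Alternatives covered filters, scaling, depth, doublets (scanpy 1.11.5 Scrublet) and resolution.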

Additional observations from a re-analysis of the deposited data

Results flagged for a closer look

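Pairs of T cell states in which the KO to WT ratio of a gene lay on opposite sides of 1, each with an interval that excluded 1, were set apart. The difference between states was not tested, since each genotype has 1 library. For Foxp3 the ratio was 1.21 in activated-like and 1.39 in S phase-like barcodes and 0.593 in effector-like barcodes. For Ikzf1 it was 1.09 in S phase-like and 0.822 in resting-like barcodes. Ikzf4 had 1.38 in S phase-like barcodes against 0.754 in resting-like and 0.183 in effector-like barcodes. The effector-like values rest on 77 KO barcodes, and every S phase-like value is one of a cluster whose WT and KO barcodes came mostly from different finer clusters.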

How the results depend on the processing

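Ikzf2 and Ikzf3 stayed below 1 in KO under all 11 alternatives over T-lineage barcodes and under all 6 in each state, although Ikzf3 reached 0.997 in resting-like barcodes at resolution 1.0, where Ikzf2 was 0.727 and Ikzf4 0.913. The T-lineage ratios of Foxp3, Ikzf1 and Ikzf4 depend on how barcodes are weighted. As the mean of single-barcode CPM, Foxp3 was 0.915, Ikzf1 0.962, Ikzf2 0.603 and Ikzf4 0.923. Thinned to 1000 UMIs, Foxp3 was 0.831, Ikzf1 0.903, Ikzf2 0.58, Ikzf3 0.713 and Ikzf4 0.81. Weighted to the WT mix of named states, an alternative added after seeing the data, Foxp3 was 0.918, Ikzf1 0.938, Ikzf2 0.58 and Ikzf4 0.751. The KO effector-like values in that weighting rest on 16 UMIs of Foxp3 and 4 UMIs of Ikzf4. Over named states only, also added after seeing the data, Foxp3 was 1.19 and Ikzf4 1.09. With median ratio scaling, Ikzf1 was 1.06 and Ikzf2 0.641 over T-lineage and 0.668 over resting-like barcodes. In S phase-like barcodes resolution 1.0, whose cluster holds other barcodes, gave 0.84 for Foxp3, 0.862 for Ikzf1 and 0.745 for Ikzf4, and thinning gave 0.916 for Ikzf1, 0.663 for Ikzf2, 0.544 for Ikzf3 and 0.986 for Ikzf4. The mean of single-barcode CPM gave 1.05 for Ikzf1, 0.76 for Ikzf2, 0.868 for Ikzf3 and 1.3 for Ikzf4 in that state. In effector-like barcodes thinning gave 0.833 for Foxp3 and 0.379 for Ikzf4, from 3 and 1 KO barcodes with a UMI. The mean of single-barcode CPM there gave 0.822 for Ikzf3. Of 80 alternatives for the levels by state and library, 35 stayed within the main interval and 45 moved outside it. The causes were not tested. Thinned to 500 UMIs, the KO minus WT share of Ikzf4 over T-lineage barcodes was 0.191 percentage points, against -0.778 at 1000 UMIs. Over both directions, 18.5% of genes were past 1.5-fold in T-lineage barcodes and 14.2% in resting-like barcodes, and 13.4% and 9.25% with a minimum of 200 UMIs. No paired analysis was possible because each genotype has 1 library. Depth limits Foxp3 and Ikzf4 most, and KO effector-like values rest on 77 barcodes.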
